A study of Mus musculus with 2 samples.

Results

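The mouse genes Mt1, Mt2, Slc30a1, Slc39a14 and Mtf1 were followed by their symbols in single cell RNA counts from whole lung. They are 5 of the 32286 features in each library, and all 5 were found in both. The 2 libraries came from lungs of female BALB/c mice aged 9 to 10 weeks that received intravenous injections for 3 weeks. The mice of the CM library were given control media. The mice of the TCM library were given tumor conditioned media, which per the study's methods was made by culturing primary 4T1 mouse breast tumors without serum. Each group is 1 library and the number of mice behind it is not given in the sources used here, so no difference between CM and TCM could be tested.

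Metallothioneins are small cysteine-rich proteins that bind zinc and copper ions in the cytosol. Mt1 and Mt2 encode the widely expressed forms. Mtf1 encodes the zinc-sensing transcription factor that binds metal response elements in front of the metallothionein genes and of Slc30a1. Slc30a1 encodes ZnT1, which exports zinc across the plasma membrane. Slc39a14 encodes ZIP14, an importer of zinc, manganese and iron that is known as an acute phase gene. Metallothionein genes also respond to glucocorticoids, oxidants and inflammatory cytokines, and in the lung they are known for protection against metals and oxidants.

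Mt1 (ENSMUSG00000031765) lies at chr8:94179082-94180327 on the plus strand of GRCm38, and Mt2 (ENSMUSG00000031762) at chr8:94172664-94173568 on the same strand. The end of Mt2 and the start of Mt1 are 5514 bases apart. Slc30a1 (ENSMUSG00000037434) is at chr1:191906767-191913247 on the plus strand, Slc39a14 (ENSMUSG00000022094) at chr14:70303469-70351425 on the minus strand, and Mtf1 (ENSMUSG00000028890) at chr4:124802104-124849800 on the plus strand. All 5 are protein coding.

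The promoters of the known Mtf1 targets are shown because the metal response element is the sequence these genes are known to share. RefSeq promoter windows of 300 bases (250 before to 50 after the RefSeq start, GRCm38.p6, a reference strain other than BALB/c) were matched by symbol for 4 of the 5 members. Capitals mark the response element core TGCACNC or TGCGCNC on either strand. The windows, all on the plus strand, are chr8:94178839-94179138 for Mt1, chr8:94172368-94172667 for Mt2 and chr1:191906531-191906830 for Slc30a1.
Mt1: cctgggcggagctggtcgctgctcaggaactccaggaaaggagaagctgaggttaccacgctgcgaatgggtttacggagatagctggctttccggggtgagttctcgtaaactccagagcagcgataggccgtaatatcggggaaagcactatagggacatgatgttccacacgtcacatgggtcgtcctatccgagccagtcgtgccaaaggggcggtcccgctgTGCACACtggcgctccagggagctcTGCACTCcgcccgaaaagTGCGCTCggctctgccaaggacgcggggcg
Mt2: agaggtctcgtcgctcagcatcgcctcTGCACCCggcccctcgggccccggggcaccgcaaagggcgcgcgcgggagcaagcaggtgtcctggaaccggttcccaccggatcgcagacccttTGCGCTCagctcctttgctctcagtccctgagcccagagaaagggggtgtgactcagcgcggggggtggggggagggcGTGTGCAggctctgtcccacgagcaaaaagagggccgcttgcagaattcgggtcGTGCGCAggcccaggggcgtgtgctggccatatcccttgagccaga
Slc30a1: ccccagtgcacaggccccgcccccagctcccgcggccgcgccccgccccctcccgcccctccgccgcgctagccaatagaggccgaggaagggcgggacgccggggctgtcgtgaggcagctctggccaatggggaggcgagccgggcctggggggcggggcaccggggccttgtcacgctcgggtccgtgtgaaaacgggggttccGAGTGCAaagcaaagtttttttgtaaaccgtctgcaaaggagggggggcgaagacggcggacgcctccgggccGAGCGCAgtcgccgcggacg

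The Mt1 window held 3 matches, all on the forward strand, beginning 23 bases before the start and at bases 2 and 20 after it. The Mt2 window held 4 matches, 2 on each strand. The Slc30a1 window held 2 matches, both on the reverse strand. The Mtf1 window (chr4:124802299-124802598) held 0. Among 32851 RefSeq promoter windows of the same length, 25.7% held at least 1 match, 7.11% at least 2, 1.97% at least 3 and 0.517% at least 4. A match describes these letters only.

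The CM library held 31944151 UMIs (unique molecular identifiers, each counting 1 captured RNA molecule) and that of TCM 36648719. The filter kept 7988 CM and 7707 TCM droplets, which had to hold 500 or more UMIs, 200 or more genes and no more than 10% mitochondrial UMIs. Their median depths were 2085 and 2346 UMIs. Of the cell barcodes, 93 occurred in both libraries, where draws from the same barcode list would share 83.5. Each droplet was put in 1 of 16 gates by the number of distinct markers detected, out of 12 per cell type, with at least 3 markers and a lead of 2 over the next type. A gate is a range of a marker score and not a proven cell type. Fibroblast gate cells numbered 859 in CM and 628 in TCM, and 142 and 81 of these stood just at the limit of either rule. Endothelial gate cells numbered 1972 and 1905, with 211 and 137 at the limit. A median of 7 fibroblast markers in CM and 8 in TCM was detected per fibroblast gate cell, and a median of 0 or 1 for each other type. A median of 9 endothelial markers was detected per endothelial gate cell in both libraries, with at most 1 marker of any other type in CM and 2 (of AT1 cells) in TCM. No gate was given to 1592 CM and 1009 TCM droplets. The neutrophil gate held 260 CM and 1491 TCM cells, so any sum over all cells weighs neutrophils unequally. Levels below are UMIs of a gene per 100000 UMIs of the gate (CP100k). Intervals are 95% and cover counting error only. UMIs of these genes clump in few cells, so the intervals do not cover the spread between cells or mice.

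Mt1 was spread over stromal, airway and macrophage gates and was low in lymphocytes. In CM the alveolar macrophage gate, resident phagocytes of the air space, held 269 CP100k (interval 260 to 278). The fibroblast gate followed with 234 CP100k (229 to 239). Airway epithelial (189), mural (183), dendritic (170) and interstitial macrophage gates (167) came next, and in this run of 4 each interval overlapped that of its neighbour. Mural cells are the pericytes and smooth muscle cells of vessels. AT2 cells, which make surfactant, stood at 48.0 CP100k and endothelial cells at 22.1. AT1 cells, the thin gas exchange epithelium, stood at 10.4. The NK, neutrophil, T, monocyte and B gates lay between 4.25 and 6.05 CP100k with overlapping intervals. In TCM the alveolar macrophage gate again stood highest with 299 CP100k (291 to 308), followed by the fibroblast gate with 259 (253 to 265) and the interstitial macrophage gate with 215 (201 to 230). The lowest gates in TCM were B with 3.47 CP100k and T with 3.09.

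**Figure D1:**
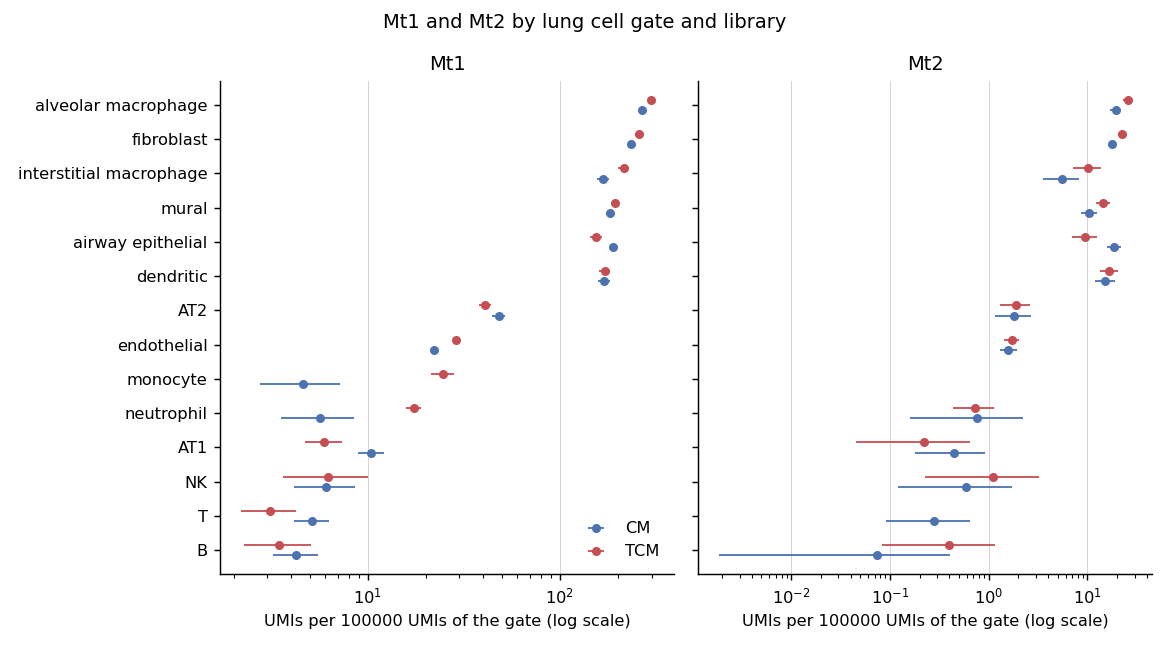
Level of Mt1 and Mt2 in 14 gates with at least 50 cells in each library, in UMIs per 100000 UMIs of the gate on a log axis, for CM and TCM, with exact 95% Poisson intervals for counting error. Gates with 0 UMIs (Mt2 in monocytes of both libraries and in T cells of TCM) have no point. The Mt1 level ran from 4.25 in B cells to 269 in alveolar macrophages in CM.

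The fibroblast gate, with 10.8% of CM and 8.15% of TCM cells, held 34.0% and 32.5% of all Mt1 UMIs. The endothelial gate held 6.37% and 9.69% of them with 24.7% of the cells in each library. Per UMI, Mt1 was much more of a fibroblast and macrophage transcript than an endothelial one in these lungs. Free RNA, read from droplets of at most 50 UMIs, held Mt1 at 41.2 CP100k in CM and 42.9 in TCM, above the endothelial level. Free RNA was estimated at 138 UMIs per cell in CM and 275 in TCM from genes that B and T cells lack. After thinning each cell to 1000 UMIs, 28.3% of fibroblast gate cells in CM and 28.7% in TCM had an Mt1 UMI (33.4% and 39.0% unthinned). The thinned share was 7.96% and 8.06% in endothelial cells (11.97% and 16.2% unthinned) and 69.9% and 73.9% in alveolar macrophages (88.1% and 92.7% unthinned). In B cells, a low reference, it was 2.09% and 3.41% (2.85% and 5.08% unthinned). Thinning left out 173 and 49 fibroblast, 465 and 317 endothelial, 20 and 7 alveolar macrophage, and 139 and 90 B gate cells.

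Within the fibroblast gate, adventitial fibroblasts, the cells of the cuffs around airways and vessels, held more Mt1 per UMI than alveolar fibroblasts. The levels were 322 CP100k (309 to 337) against 216 (210 to 222) in CM, and 372 (355 to 390) against 234 (227 to 240) in TCM. The 10 richest adventitial cells held 68.1% of these UMIs in CM, where 449 of 2038 lay in 1 cell, and 69.5% in TCM. An Mt1 UMI was found in 51.0% of CM and 64.0% of TCM adventitial cells, against 29.2% and 34.3% of alveolar fibroblasts. Within the endothelial gate, aerocytes, the large capillary cells of gas exchange, held 31.1 CP100k in CM and 38.6 in TCM. General capillary cells held 21.7 and 25.6. Few cells weigh on the aerocyte levels, with 64 of 319 Mt1 UMIs in 1 cell of CM and 165 of 478 in 1 cell of TCM. An Mt1 UMI was found in 15.5% of CM and 16.7% of TCM aerocytes, against 11.2% and 14.9% of general capillary cells. The 69 large vessel cells of CM held 9 Mt1 UMIs, and the 43 of TCM held 70, of which 45 lay in 1 cell.

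Mt2 followed the same classes at lower counts. The alveolar macrophage gate held 254 Mt2 UMIs in CM and 382 in TCM (19.3 and 25.5 CP100k). The fibroblast gate held 588 and 638 (17.8 and 22.3 CP100k), the airway gate 147 and 49 (18.6 and 9.40 CP100k) and the dendritic gate 72 and 90 (15.1 and 16.7 CP100k). The endothelial gate held only 104 and 131 UMIs (1.59 and 1.71 CP100k). Each molecule was counted at its 5′ end, so the share of Mt2 among Mt1 and Mt2 UMIs was not divided by length. That share was 6.53% in all CM cells and 7.08% in all TCM cells. With the libraries summed, it was 7.49% in fibroblast gate cells (7.09 to 7.90%), 7.34% in alveolar macrophages (6.80 to 7.91%), 3.91% in interstitial macrophages (3.03 to 4.95%) and 4.03% in AT2 cells (3.08 to 5.17%). Interstitial macrophages thus had Mt1 with little Mt2, beyond counting error, when set beside alveolar macrophages. Adventitial fibroblasts stood at 9.502% (8.63 to 10.4%) and alveolar fibroblasts at 6.53% (6.10 to 6.995%). Monocyte gate cells had 223 Mt1 UMIs and 0 Mt2 UMIs, which allows an Mt2 share of up to 1.35% by 3 counts of the total (1.64% as the exact upper limit).

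The other family members on the list of metallothioneins had few UMIs or none. Mt4 had 0 UMIs in every gate. Mt3, the brain form, had 8 UMIs in fibroblast gate cells of TCM and 0 in CM, and all 8 lay in 1 cell. The airway gate held 1 Mt3 UMI in CM and 6 in TCM (0.13 and 1.15 CP100k). A single Mt3 UMI was counted in each of the endothelial, T, neutrophil and dendritic gates of TCM and in the B gate of CM, and the other gates with at least 50 cells in each library held 0.

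Slc30a1, the exporter, was highest in endothelial cells. The endothelial gate held 351 UMIs in CM and 411 in TCM, or 5.36 CP100k in each library (4.81 to 5.95 in CM, 4.86 to 5.91 in TCM). It held 65.0% and 67.8% of all Slc30a1 UMIs. General capillary cells stood at 5.48 and 4.998 CP100k and aerocytes at 6.14 and 6.87. No other gate with at least 50 cells in each library exceeded 2.20 CP100k, and the fibroblast gate held 7 UMIs in each library (0.21 and 0.24 CP100k). A Slc30a1 UMI was found in 15.2% of CM and 17.7% of TCM endothelial cells at full depth. Thinned, the shares were 5.51% and 4.85%, against 0.569% and 0.379% of B cells. Fibroblast gate cells thus had the second highest Mt1 level and nearly no Slc30a1, while endothelial cells had the highest Slc30a1 level and ranked 8 of 14 gates for Mt1 in each library.

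Slc39a14, the importer, was low and more evenly spread. Fibroblast gate cells held 50 UMIs in CM and 54 in TCM (1.52 and 1.88 CP100k). Endothelial cells held 67 and 79 (1.02 and 1.03 CP100k), alveolar macrophages 23 and 40 (1.75 and 2.67 CP100k) and mural cells 16 and 26 (1.43 and 2.50 CP100k). AT2 cells, with 1 and 4 UMIs, had the lowest level in CM (0.07 CP100k). Mtf1, the sensor, was detected in all 14 gates between 0.69 and 3.95 CP100k. It stood at 50 and 41 UMIs in fibroblasts (1.52 and 1.43 CP100k), 203 and 208 in endothelial cells (3.10 and 2.71 CP100k) and 52 and 50 in alveolar macrophages (3.95 and 3.33 CP100k). The sensor did not follow the metallothionein levels from class to class.

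**Figure D2:**
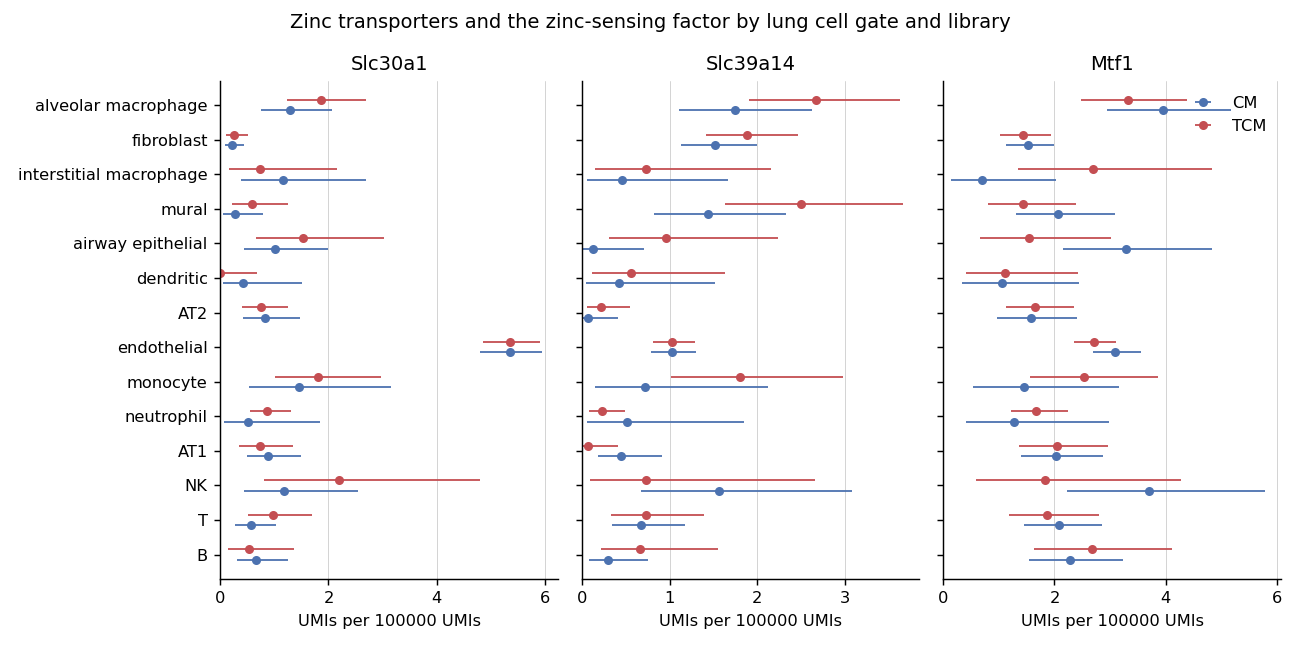
Level of Slc30a1, Slc39a14 and Mtf1 in 14 gates for CM and TCM, in UMIs per 100000 UMIs of the gate, with exact 95% Poisson intervals for counting error. Slc30a1 stood at 5.36 in endothelial cells of both libraries and at most 2.20 elsewhere.

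The likeness of class profiles was described by Pearson's r over 28 points, the 14 gates in 2 libraries, on log2(CP100k + 1). The points share libraries and depth, so no p is given. Mt2 was the gene most like Mt1 among 14510 genes with r = 0.95. Atpif1 (0.85), Dapk1 (0.81), Pecr (0.81) and Spire1 (0.81) came next. Slc39a14 was most like Ppt2 (0.75), Tnpo1 (0.72), Adcy3 (0.71), Sept11 (0.71) and Rhoq (0.70). Its profile rests on few UMIs in several gates, such as 1 and 4 in AT2, 1 and 5 in airway and 2 and 3 in dendritic cells. These 5 values of r are thus poorly measured. Between members, r was -0.18 for Mt1 with Slc30a1, 0.38 for Mt1 with Slc39a14 and -0.10 for Mt1 with Mtf1. Mtf1 with Slc30a1 gave 0.45.

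The study's comparison asks how the lung differs after tumor conditioned media. Over all cells Mt1 had 22745 UMIs in CM and 22853 in TCM (87.8 and 84.9 CP100k, log2 ratio -0.048, -0.07 to -0.02). The median gene over all cells had a ratio of -0.055, so Mt1 did not stand below it. No member passed 1.5-fold over all cells, where 5.16% of 14510 genes with at least 50 UMIs were past 1.5-fold higher in TCM and 4.64% lower. The gates moved in different directions. The interval of the Mt1 log2 ratio was above 0 in 6 of 14 gates, below 0 in 4 and included 0 in 4.

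In fibroblast gate cells 7726 CM and 7424 TCM UMIs of Mt1 were counted, and the level per UMI was slightly higher in TCM (log2 ratio 0.15, interval 0.10 to 0.19). The Mt1 ratio was 0.41 in the clusters named fibroblast, which held 39.8% of the gate's CM cells and 37.7% of its TCM cells. Left out of these was an unnamed cluster of 357 CM and 367 TCM cells with the alveolar fibroblast markers Slc7a10, Fgfr4 and Wnt2 among its top genes. The 0.41 thus covers other cells than the whole gate. Mt2 had a ratio of 0.32 (0.16 to 0.48). The ratio was 0.21 in adventitial and 0.11 in alveolar fibroblasts for Mt1, and 0.35 and 0.36 for Mt2. Slc39a14 (0.31, -0.27 to 0.90) and Mtf1 (-0.08, -0.72 to 0.54) had intervals that included 0. Of the 4 members with at least 50 UMIs, 0 passed 1.5-fold in this gate, where 2.87% of 8863 genes were past that fold higher in TCM and 3.08% lower.

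In endothelial cells Mt1 had 1448 and 2215 UMIs (22.1 and 28.9 CP100k), a log2 ratio of 0.39 (0.29 to 0.48) that was also 0.39 after subtraction of free RNA, 0.30 without the 10 richest cells and 0.49 without the richest cell of each library. Mt2 (0.11, -0.28 to 0.49), Slc30a1 (0.00, -0.21 to 0.21), Slc39a14 (0.01, -0.48 to 0.50) and Mtf1 (-0.19, -0.48 to 0.10) all had intervals that included 0. Of the 5 members, 0 passed 1.5-fold, where 3.12% of 10813 genes were past it higher in TCM and 2.60% lower. The Mt2 ratio was -0.16 after subtraction of free RNA, and 1.32 without the 10 richest cells, where 29 and 85 UMIs were left. Leaving these out took 10 of the 32 CM cells with an Mt2 UMI but 10 of 73 in TCM. The 1.32 thus came from an unequal removal and says nothing of stability. The interval for Slc30a1, the best measured of the members other than Mt1, leaves room for a change of at most 0.21 on the log2 scale in either direction by counting error alone.

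The monocyte and neutrophil gates had the highest Mt1 ratios and low counts. Monocyte gate cells had 19 Mt1 UMIs in 103 CM cells and 204 in 170 TCM cells (4.59 and 24.6 CP100k), a log2 ratio of 2.42 (1.74 to 3.18). The share of monocytes with an Mt1 UMI was 14.6% in CM and 44.1% in TCM, and 3.16% and 11.2% after thinning, where B cells stood at 2.09% and 3.41%. The 204 UMIs lay in 75 cells, with at most 15 in any of them. Across alternative gates, filters, scalings and cells left out the ratio ran from 1.60 to 3.57. Leaving out the 10 richest cells took 10 of the 15 CM cells with an Mt1 UMI but 10 of 75 in TCM. That alternative was thus unequal between the libraries and says nothing of stability. The TCM monocytes with and without an Mt1 UMI had like sums of interstitial macrophage markers (96.9 and 95.2 CP100k, 5 and 3 of the 12 at 0) and of alveolar macrophage markers (39.1 and 44.6, 5 and 6 at 0). Between libraries, however, the monocyte gate held interstitial macrophage markers at 96.2 CP100k in TCM against 57.9 in CM (2 and 6 of 12 at 0) and dendritic markers at 28.4 against 10.4 (6 and 7 of 12 at 0). Their part in the ratio was not tested. The neutrophil gate had 22 and 459 Mt1 UMIs (5.61 and 17.4 CP100k, log2 ratio 1.63, 1.01 to 2.32). In TCM 143 of the 459 lay in 1 cell, and without the richest cell of each library the ratio was 1.38. Neutrophil gate cells with an Mt1 UMI held alveolar macrophage markers at 31.7 CP100k against 6.14 in those without (0 and 1 of 12 at 0), dendritic markers at 27.2 against 6.19 (1 and 1 of 12 at 0) and fibroblast markers at 71.95 against 42.4 (0 and 1 of 12 at 0), and the part of these in the ratio was not tested. Between libraries the neutrophil gate held alveolar macrophage markers at 9.35 CP100k in TCM against 24.5 in CM (0 and 1 of 12 at 0), dendritic markers at 8.82 against 10.2 (0 and 7 at 0), fibroblast markers at 46.1 against 19.6 (0 and 2 at 0) and NK markers at 4.24 against 80.6 (1 and 5 at 0).

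The 2 macrophage gates had higher Mt1 levels in TCM. Alveolar macrophages had 3539 and 4492 Mt1 UMIs (log2 ratio 0.16, 0.09 to 0.22) and a Mt2 ratio of 0.40 (0.17 to 0.64). The median gene of this gate had a ratio of 0.10, so Mt1 stood only 0.05 above it. Interstitial macrophages had 724 and 875 Mt1 UMIs (0.36, 0.22 to 0.51), 24 and 41 of Mt2 (0.86, 0.10 to 1.65) and 3 and 11 of Mtf1 (1.96, 0.04 to 4.44). Of the 41 Mt2 UMIs in TCM, 18 lay in 1 cell, where the richest cell of CM held 6. The share of these cells with an Mt2 UMI was 13.1% in CM and 12.6% in TCM.

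In epithelial gates and T cells the Mt1 ratio was below 0, and its sign changed under other settings in each of them. Airway cells had 1493 UMIs in 59 CM cells and 803 in 60 TCM cells (-0.30, -0.42 to -0.17), with -0.29 without the richest cell of each library but 0.37 without the top 6% of droplets by doublet score. Airway Mt2 had a ratio of -0.99 (-1.48 to -0.51). AT2 cells had 640 and 764 UMIs (48.0 and 40.9 CP100k, -0.23, -0.38 to -0.08), and 157 of the 640 lay in 1 cell. Without the richest cell of each library the AT2 ratio was 0.08 (-0.08 to 0.25), and it was 0.29 in AT2 clusters. AT1 cells had 164 and 81 UMIs (-0.81, -1.21 to -0.42), but the ratio was -0.01 with a gate of 2 markers and a lead of 1, and 0.36 in AT1 clusters. T cells had 91 and 38 (-0.72, -1.31 to -0.16), with 31 of the 91 in 1 cell. Their ratio was -0.24 (-0.89 to 0.38) without the richest cell of each library and 0.45 in T clusters. Mural cells stood at 0.08 (-0.01 to 0.17) for Mt1, at 0.62 without the 10 richest cells of each library, at -0.06 with a gate of 2 markers and a lead of 1, and at -0.03 in mural clusters. The 10 richest mural cells held 61.9% of the Mt1 UMIs in CM and 44.5% in TCM. Mt2 had 115 and 150 UMIs in mural cells (10.3 and 14.4 CP100k, 0.48, 0.12 to 0.85). A mural Mt1 UMI was found in 16.7% of thinned cells in CM (12.6 to 21.5%) and 27.8% in TCM (22.4 to 33.8%), or 25.0% and 37.0% unthinned, and thinning left out 79 and 34 mural cells. Dendritic (0.00, -0.13 to 0.14), NK (0.04) and B cells (-0.29) also had intervals that included 0. For Slc30a1 the interval included 0 in all 13 gates with more than 3 UMIs in a library, and for Slc39a14 in all 12.

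**Figure D3:**
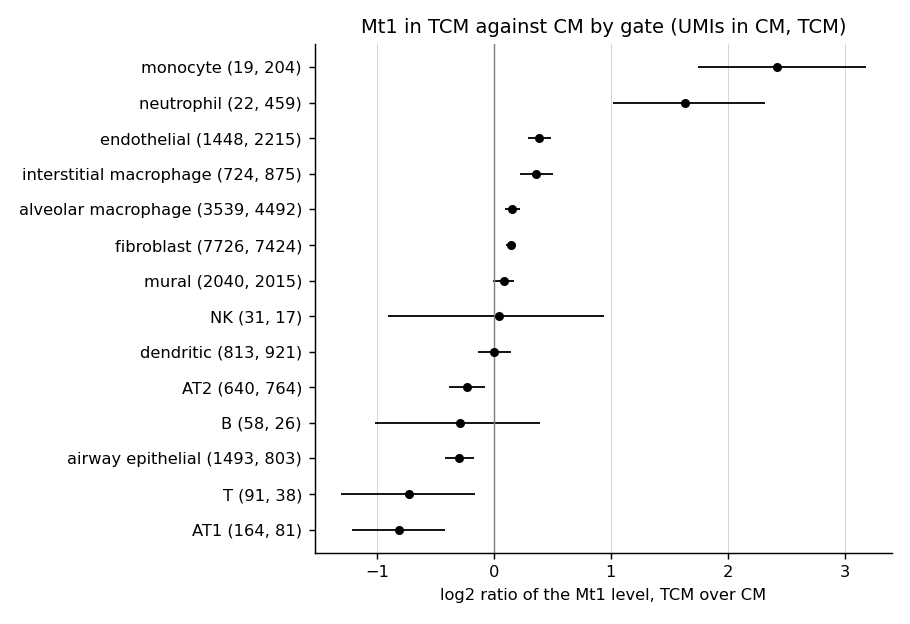
Log2 ratio of the Mt1 level in TCM over CM for 14 gates, with 95% conditional binomial intervals for counting error and the Mt1 UMIs of each library beside the gate's name. Monocytes (2.42) and neutrophils (1.63) stand to the right, AT1 (-0.81) and T cells (-0.72) to the left, and fibroblasts (0.15) near 0.

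Mt1 was concentrated in few fibroblasts. The 10% of fibroblast gate cells with most Mt1 UMIs held 85.0% of them in CM (86 cells) and 78.0% in TCM (63 cells). Among genes with at least 1000 UMIs in this gate, the median gene had 35.3% of its UMIs in such a group in CM and 30.2% in TCM, and Mt1 was above 98.8% of 498 genes and 99.1% of 437. The deepest 10% of cells held 24.2% and 20.8% of all UMIs. At least 50% of the Mt1 UMIs lay in 25 cells of CM and 27 of TCM, and the richest cell held 449 in CM and 235 in TCM. Mt1 was thus far more concentrated than depth. Alveolar macrophages differed, with 50.7% and 50.3% of Mt1 UMIs in the top 10% of cells and a Mt1 UMI in most cells. Even so, Mt1 in alveolar macrophages was above 96.9% of 196 genes with at least 1000 UMIs in CM and 98.1% of 214 in TCM, whose medians were 29.1% and 27.4%. The endothelial gate had 97.3% and 94.7%, where only 11.97% and 16.2% of cells had any Mt1 UMI. Mural cells had 93.8% in CM and 78.2% in TCM. Endothelial Slc30a1 lay mostly at 1 UMI per cell, with 351 UMIs in 300 cells of CM (at most 3 in any) and 411 in 337 of TCM (at most 5).

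**Figure D4:**
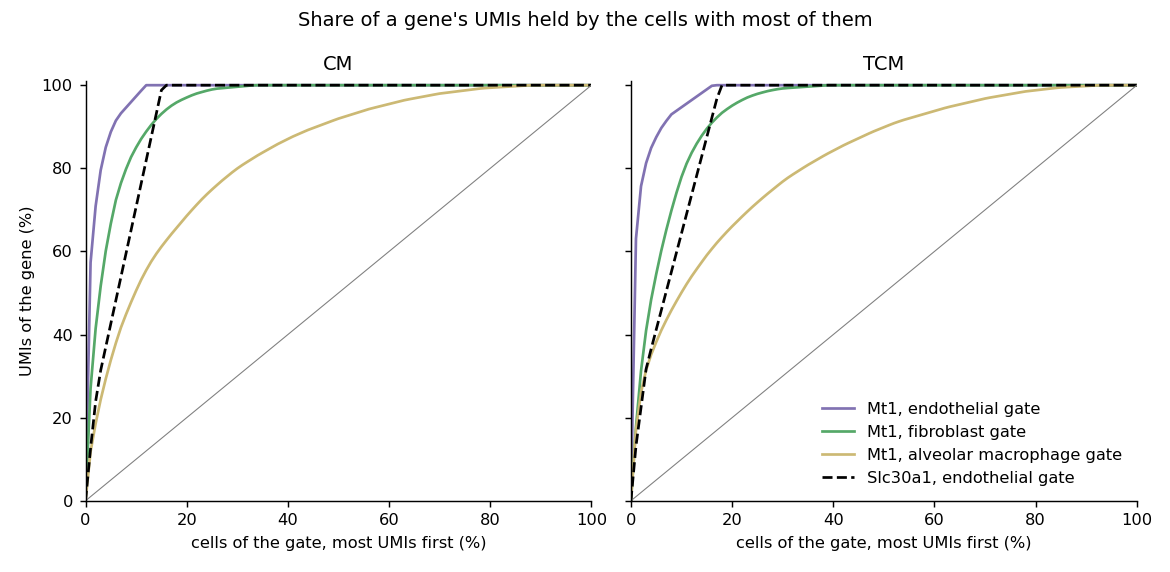
Cumulative percent of a gene's UMIs against the percent of cells ranked from most to fewest of its UMIs, for Mt1 in the fibroblast, endothelial and alveolar macrophage gates and for Slc30a1 in the endothelial gate, in CM and TCM. The grey line is an even spread. In the fibroblast gate the first 10% of cells held 85.0% in CM and 78.0% in TCM, while in alveolar macrophages they held 50.7% and 50.3%.

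The fibroblast gate cells highest in Mt1 per UMI (86 in CM, 63 in TCM, called Mt1-high) were set against the other cells of the gate. Mt1 itself chose them and is not compared. Their median depth was 4410 UMIs against 3325 in CM and 4878 against 4521 in TCM, and their median mitochondrial percent was 1.54 against 1.69 and 1.75 against 1.84. Adventitial cells made up 19.8% of them against 17.3% of the rest in CM and 20.6% against 13.5% in TCM, with overlapping intervals. Marker sums of interstitial macrophages were lower in them (19.9 against 36.2 CP100k in CM, 19.0 against 34.6 in TCM, with 9 and 8 of 12 markers at 0), and alveolar macrophage markers stood at 0.53 and 0.66 CP100k with 10 of 12 at 0 in each library.

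Mt2 went with Mt1 in the same cells. It stood at 120 CP100k in Mt1-high fibroblasts of CM against 4.59 in the rest (log2 ratio 4.71, 4.43 to 5.002) and at 141 against 8.12 in TCM (4.12, 3.87 to 4.36). An Mt2 UMI was found in 76.7% of Mt1-high cells of CM and 73.0% of TCM, against 6.47% and 13.8% of the rest. Slc39a14 had 14 UMIs in Mt1-high cells and 36 in the rest in CM (1.59, 0.58 to 2.52), and 9 and 45 in TCM (0.75, -0.47 to 1.80). Mtf1 had 3 and 47 UMIs in CM and 5 and 36 in TCM, and both intervals included 0. Slc30a1 had 0 and 1 UMI in the Mt1-high cells.

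Besides Mt2, the genes that led Mt1-high fibroblasts in both libraries were Has1, Ccl7, Myc, Ccl11, Ch25h, Cxcl1, Ccl2, Maff and Tnfaip2. Has1, a hyaluronan synthase, had 186 UMIs in the 86 Mt1-high cells of CM and 81 in the 773 others (log2 ratio 4.15), and 188 and 78 in TCM (4.34). Ccl2, which attracts monocytes, had 489 and 435 in CM (3.12) and 406 and 446 in TCM (2.93). Cxcl1, which attracts neutrophils, had 528 and 324 in CM (3.66) and 318 and 329 in TCM (3.02). Ccl11, the eosinophil chemokine, had ratios of 3.22 and 4.16, and the transcription factor Myc of 3.45 and 3.86. Ccl11 is also a marker of the adventitial subclass.

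Fixed lists of 10 genes were summed in the same way. The share of all genes with an interval above 0 was not counted, so the counts per list have no background. Acute phase and NF-kB genes summed higher in Mt1-high fibroblasts by a log2 ratio of 1.87 in CM and 1.58 in TCM. Of the 10, 8 and 9 had an interval above 0, and 1 and 0 below. Cebpd stood at 773 CP100k against 286 in CM (1.44) and 652 against 274 in TCM (1.25), and Nfkbia at 306 against 73.1 (2.07) and 247 against 85.7 (1.53). Ccl2, Cxcl1 and Ccl7 are on this list and among the leading genes too. Immediate early genes were higher by 1.59 and 1.05, all 10 of 10 in each library, with Fos at 1.21 and 0.67 and Junb at 1.86 and 1.30. These genes are known to respond to tissue dissociation. Heat shock genes summed higher by 0.77 and 0.42, with 6 and 4 of the 10 above 0 and 1 and 0 below. Hspa8 stood at 1.23 and 0.69 and Hspb1 at -0.09 and -0.04. Oxidative stress genes summed higher by 0.49 and 0.35, but only 3 of 8 genes with at least 20 UMIs had an interval above 0 in CM and 2 of 9 in TCM. Sqstm1 (0.70 and 0.65) had an interval above 0 and Prdx1 (0.06 and -0.13) did not. Glucocorticoid-induced genes summed higher by 0.56 and 0.12, where 7 and 5 of the 10 had an interval above 0 and 1 had it below in each library. Dusp1 stood at 0.60 and 0.16. Tsc22d3 went against most of the list, at -1.22 and -1.13. Copper and iron genes differed little (-0.06 and -0.09), with the ferritin chains Fth1 at -0.11 and -0.11 and Ftl1 at 0.06 and -0.03. The sums of the other zinc exporters (-0.32 and -0.23) and importers (-0.25 and 0.02) had intervals that included 0. How much of any of these went with handling of the tissue was not tested.

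**Figure D5:**
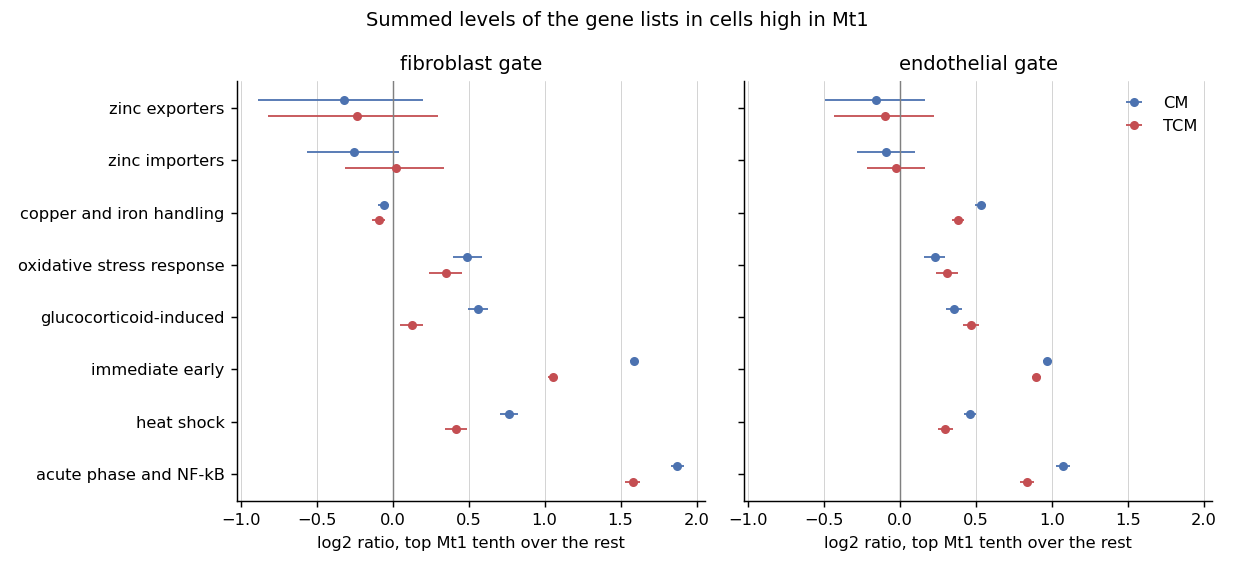
Log2 ratio of the summed level of each fixed gene list in Mt1-high cells over the other cells of the fibroblast gate and of the endothelial gate, for CM and TCM, with 95% counting intervals. Members are left out of the sums. In fibroblasts the acute phase and NF-kB list stood at 1.87 in CM and 1.58 in TCM, and the zinc lists included 0.

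Mt1-high endothelial cells numbered 197 of the 236 cells with an Mt1 UMI in CM and 190 of 308 in TCM, and the lowest of them held 1 Mt1 UMI. Their median depth was 2664 UMIs against 2194 for the others in CM and 1869 against 3023 in TCM. Their leading genes in both libraries were Ccl2, Mt2, C1qa, Thbs1, Cxcl1, C1qc, C1qb, Krt18, Adm and Gadd45b. Mt2 had 94 UMIs in them and 10 in the others in CM (6.10, 5.16 to 7.21), and 85 and 46 in TCM (4.22, 3.69 to 4.77). Ccl2 had 254 and 25 in CM (6.21) and 80 and 39 in TCM (4.37). Thbs1, which encodes the matrix protein thrombospondin 1, had ratios of 3.86 and 2.79. The complement genes C1qa, C1qb and C1qc are macrophage markers. A UMI of them was found in 3 of the 197 Mt1-high cells of CM (1.52%) and 8 of the 190 of TCM (4.21%), against 0.507% and 3.27% of the others. Endothelial cells with such a UMI held 1.105% of the gate's Mt1 UMIs in CM and 2.98% in TCM, and without these cells the Mt1 ratio of TCM over CM was 0.38. Fibroblast markers summed to 151 CP100k in Mt1-high cells against 71.1 in CM and 123 against 92.3 in TCM, with 0 of 12 at 0. Interstitial macrophage markers summed to 23.4 against 13.7 and 41.7 against 14.4, with 1 of 12 at 0 in each library. Their own endothelial markers summed to 1140 against 1635 and 1386 against 1769. The part of these markers in the Mt2 and chemokine ratios was not tested. Acute phase and NF-kB genes summed higher in Mt1-high endothelial cells by 1.07 in CM and 0.84 in TCM, immediate early genes by 0.97 and 0.90, heat shock genes by 0.46 and 0.30, glucocorticoid-induced genes by 0.35 and 0.47, oxidative stress genes by 0.23 and 0.31, and copper and iron genes by 0.53 and 0.39. The intervals of the zinc exporters (-0.16 and -0.10) and importers (-0.09 and -0.02) included 0. Slc30a1 showed no excess in Mt1-high endothelial cells, with 35 and 316 UMIs in CM (-0.31, -0.85 to 0.20) and 30 and 381 in TCM (-0.33, -0.92 to 0.21).

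The wider zinc transporter families differed little between libraries. Of 10 exporters of the Slc30 family on the list, 6 had at least 50 UMIs in the fibroblast or endothelial gate, and of 14 Slc39 importers 10 had. In fibroblasts 1 of 5 measured exporters was past 1.5-fold, Slc30a7, which loads zinc into the secretory pathway, with 46 and 62 UMIs (0.63, 0.06 to 1.22). The other 4 were Slc30a4 (0.17), Slc30a5 (0.24), Slc30a6 (0.06) and Slc30a9 (-0.20), and their intervals included 0. Of 8 importers with 50 UMIs in fibroblasts, 0 were past 1.5-fold. Slc39a7, an importer of the endoplasmic reticulum, had 295 and 274 UMIs (0.10), Slc39a1 215 and 172 (-0.12), Slc39a13 184 and 138 (-0.21) and Slc39a10 110 and 77 (-0.31). Slc39a3 (-0.27), Slc39a6 (-0.43) and Slc39a9 (-0.45) had ratios below 0 with intervals that included 0. Summed without Slc39a14, importers had 1044 and 825 UMIs in fibroblasts (-0.14, -0.27 to -0.00). In endothelial cells 0 of 6 exporters and 0 of 10 importers were past 1.5-fold. Slc39a1 had 409 and 585 UMIs there (0.29, 0.11 to 0.48), and it alone of the 16 had an interval above 0. The endothelial ratios of the other exporters were 0.21 for Slc30a4, -0.05 for Slc30a5, 0.00 for Slc30a6, 0.24 for Slc30a7 and 0.08 for Slc30a9. Those of the other importers were 0.25 for Slc39a3, -0.03 for Slc39a6, 0.05 for Slc39a7, -0.28 for Slc39a8, 0.04 for Slc39a9, -0.13 for Slc39a10, 0.13 for Slc39a11 and -0.21 for Slc39a13.

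Lists of genes known to share inducers with metallothioneins differed between CM and TCM, and not all in 1 direction. The share of all genes with an interval on 1 side of 0 was not counted, so the counts below have no background. Glucocorticoid-induced genes were higher in TCM in fibroblasts (summed log2 ratio 0.28, 8 of 10 with an interval above 0 and a median of 0.48, where the median over all genes was -0.01). Dusp1 stood at 240 and 258 CP100k (0.10) and Tsc22d3 at 60.5 and 80.5 (0.41). In endothelial cells the sum was higher by 0.16, with 5 of 10 above 0. Heat shock genes were lower in endothelial cells of TCM (-0.44, 10 of 10 below 0, median -0.43, where the median over all genes was 0.01), with Hspa8 at 288 and 232 CP100k (-0.31) and Hspb1 at 88.0 and 67.5 (-0.38). In fibroblasts the heat shock sum was -0.09. Immediate early genes were lower in TCM in both gates (-0.17 in fibroblasts and -0.15 in endothelial cells), and acute phase and NF-kB genes stood at -0.08 and 0.13. Oxidative stress genes summed to 0.04 in fibroblasts (2 of 10 with an interval above 0, 1 below, median 0.03) and 0.03 in endothelial cells (2 above, 0 below, median 0.03). Copper and iron genes summed to 0.04 in fibroblasts (2 above, 0 below, median 0.17). In endothelial cells their sum was 0.02, but 5 of 10 had an interval above 0 and 1 below, with a median of 0.29 over the 8 with 50 UMIs. The lists highest in Mt1-high fibroblasts, acute phase and immediate early, were thus not higher in TCM fibroblasts as a whole.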

How the data were processed

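Single cell RNA of whole lung was measured in 1 CM and 1 TCM library with a 10x Chromium 5′ kit. The authors made the deposited raw UMI counts per gene and barcode with Cell Ranger (4 in the matrix header) against mm10 (GRCm38.p6), and their submission also names Seurat. All 737280 barcodes of each matrix were read, and 0 columns of sample values were left out. Droplets were filtered and gated as described, levels were summed over gates, and exact Poisson, conditional binomial and Clopper-Pearson intervals were computed in Python 3.11.15 with scipy 1.17.1, numpy 2.4.6 and pandas 2.3.3. The steps were tested on simulated data. No test was run, since each group has 1 library. Doublets were kept. The caller Scrublet (scanpy 1.11.5) marked 0 of 7988 CM and 1 of 7707 TCM droplets and had not worked, so its top 6% by score were left out only as an alternative. A gate needs a lead of 2 markers, which removes only droplets whose leading types are nearly tied.

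Genes were named by rule: the members, transporters with at least 50 UMIs in the fibroblast or endothelial gate, the 5 genes most like Mt1 and Slc39a14, the 10 genes with the highest smaller-of-2-libraries ratio in Mt1-high cells, and at most 2 per list. The members, markers and lists were chosen with earlier results of these data known. Alternatives covered gate limits, filters, doublets, depth, Leiden clusters (leidenalg 0.10.2), scaling, free RNA and few cells.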

Additional observations from a re-analysis of the deposited data

Results flagged for a closer look

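The Mt1 ratio of TCM over CM took different signs in different gates, and each gate below had a 95% counting interval on 1 side of 0. On the log2 scale it was above 0 in monocytes (2.42), neutrophils (1.63), endothelial cells (0.39), interstitial macrophages (0.36), alveolar macrophages (0.16) and fibroblasts (0.15). It was below 0 in AT1 cells (-0.81), T cells (-0.72), airway cells (-0.30) and AT2 cells (-0.23), and in each of these the sign changed under at least 1 alternative. Without the richest cell of each library AT2 cells stood at 0.08 (-0.08 to 0.25), T cells at -0.24 (-0.89 to 0.38), airway cells at -0.29, AT1 cells at -0.93 and neutrophils at 1.38. With clusters in place of gates AT1 cells stood at 0.36, AT2 cells at 0.29 and T cells at 0.45, and airway cells stood at 0.37 without the top 6% by doublet score. The 6 gates above 0 stayed above 0 under all alternatives run. The difference between gates was not tested, since each group has 1 library and the intervals cover counting error only.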

How the results depend on the processing

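No paired analysis was possible because each group is 1 library. In fibroblasts the Mt1 log2 ratio (0.15) stayed above 0 under all 13 alternatives and the Mt2 ratio (0.32) under all 11. Mt1 became 0.081 with 2 markers and a lead of 1, 0.10 with cells thinned to 1000 UMIs (interval -0.01 to 0.20), 0.41 with clusters in place of gates, 0.29 as a mean over cells, 0.22 without the 10 richest cells and 0.23 without the 10 richest in Mt1 and Mt2 together, an alternative added after the data were seen. Mt2 became 0.52 with clusters and 0.56 without the 10 richest cells. The clusters named fibroblast held 367 CM and 249 TCM cells, and 39.8% and 37.7% of the gate. One had Dcn, Ccl11 and Pi16 among its top genes, and the other Ccl2, Has1, Cxcl1 and Maff. The unnamed cluster with Slc7a10, Fgfr4 and Wnt2 (357 and 367 cells) was left out, so the cluster values describe a part of the fibroblasts. The cause of these moves was not tested. In endothelial cells Mt1 (0.39) became 0.27 thinned, 0.64 with clusters, 0.54 as a mean over cells and 0.49 without the richest cell of each library, also added after the data were seen. Mt2 (0.11) became 0.53 with 4 markers and a lead of 3, 0.63 as a mean over cells, 1.32 without the 10 richest cells and -0.16 with free RNA subtracted. Only 32 CM but 73 TCM endothelial cells had an Mt2 UMI, so the 1.32 came from an unequal removal and says nothing of stability.

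The share of Mt1 in the top 10% of fibroblasts was 86.9% in CM and 79.3% in TCM with 2 markers. It was 83.8% in CM with 4 markers, 77.0% in TCM with at most 5% mitochondrial UMIs, and 81.2% and 75.9% with at least 1000 UMIs. It was 77.3% and 72.9% thinned and 79.4% and 72.2% ranked per UMI. In the clusters named fibroblast, which hold only a part of the gate, it was 65.3% and 53.3%. With a minimum of 20 UMIs in place of 50, genes past 1.5-fold numbered 566 higher and 632 lower in fibroblasts (254 and 273 at 50), 606 and 677 in endothelial cells (337 and 281) and 1059 lower over all cells (673).

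Alternatives for other gates were added after the data were seen. Mt1 in monocytes ran from 1.60 to 3.57 and in neutrophils from 0.90 to 3.32, always above 0. Only 15 CM monocytes and 13 CM neutrophils had an Mt1 UMI, against 75 and 150 in TCM. Leaving out the 10 richest cells of each library was therefore unequal in these 2 gates and says nothing of stability. In AT1 cells Mt1 ran from -1.60 to 0.36, and the value above 0 came with clusters. In AT2 cells it ran from -0.39 to 0.33, above 0 with clusters (0.29), as a mean over cells (0.059), without the 10 richest cells (0.33) and without the richest cell of each library (0.085). In T cells it ran from -1.06 to 0.87, above 0 with clusters (0.45) and without the 10 richest cells (0.87), and gave no value with free RNA subtracted. Only 28 CM and 33 TCM T cells had an Mt1 UMI, and the 10 richest held 80.2% of the UMIs in CM. In airway cells it ran from -0.89 to 0.37, above 0 without the top 6% by doublet score. Interstitial macrophages ran from 0.22 to 0.70, dendritic cells from -0.45 to 0.73 and B cells from -1.26 to 0.89. In alveolar macrophages it ran from 0.05 to 0.23 and in mural cells from -0.06 to 0.62, the highest without the 10 richest cells. The median gene moved by 0.11 in airway cells, 0.10 in alveolar macrophages and -0.12 in neutrophils. Slc30a1 in fibroblasts gave no value when thinned or without the 10 richest cells, with too few UMIs left. Its 7 UMIs in each library could not have shown a small difference.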

Other observations

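Among glucocorticoid-induced genes, 3 chosen after their values were seen were past 1.5-fold higher in TCM in both gates. In fibroblasts these were Zbtb16 with 340 and 870 UMIs (1.56), Fkbp5 with 48 and 97 (1.22) and Sult1a1 with 98 and 190 (1.16). In endothelial cells Zbtb16 had 679 and 1614 UMIs (1.02), Fkbp5 50 and 167 (1.51) and Sult1a1 261 and 489 (0.68). Droplets without a gate held 3808 Mt1 UMIs in CM and 2457 in TCM (87.1 and 75.8 CP100k). The mesothelial gate, with 24 and 33 cells, held 128 and 58 Mt1 UMIs (75.6 and 37.1 CP100k).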
